A study of Mus musculus with 7 samples.

Results

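DJ joins and V(D)J joins of the immunoglobulin heavy chain locus (Igh) were compared within the same libraries of WT mouse pro-B cells. Both classes were read from JH4, the most downstream of the J segments, by high-throughput genome-wide translocation sequencing (HTGTS), in which a primer at the JH4 coding end serves as bait and the sequence joined to it is the prey. A line of the data is 1 sequenced junction. Joins on chromosome 12 read in the plus orientation were placed by the prey position in the files: chr12:114673000-114735000 for DJ joins and chr12:114830800-117838107 for V(D)J joins. The classes held 75781 DJ lines and 42726 V(D)J lines, 118507 in all, of 121310 lines in the 3 WT libraries and 264791 lines in the 7 libraries of the series. The DJ class numbered 22703, 22080 and 30998 lines in WT replicates 1, 2 and 3. The V(D)J class numbered 16874, 10961 and 14891 lines.

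The cells were bone marrow pro-B cells of WT mice on the 129SVE background, 4 to 6 weeks old, sorted as B220+CD43highIgM-, and genomic DNA was the input. The other 4 libraries of the series came from VH81X-CBEscr/scr mice of the same background and are not used here. The labels do not say how many animals went into a library, so the spread given here is that between 3 WT libraries and may be technical. Both classes of a library come from the same DNA, the same primer and the same run, which makes each comparison a paired one. Genomic DNA carries no protein or RNA marker that would test the sort; the presence of DJ and V(D)J joins in all 3 libraries is what the data show of the cell type.

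A heavy chain variable exon is built in order: a D segment is joined to a JH segment first, and a V segment is then joined to that DJ. The RAG recombinase cuts beside a recombination signal sequence, whose heptamer touches the coding segment. The cut coding ends are closed as hairpins, opened off centre (which leaves palindromic P bases), trimmed, and extended by terminal deoxynucleotidyl transferase, which adds N bases, before end joining seals them. Where few N bases are added, the ends are often aligned through short stretches of the same letters in both.

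The sequences that the results turn on are the first bases of JH4 and the D segments, read here from the majority of the deposited reads and written on the coding strand, V to J. All positions are those of the files (mm9, per the submitters' processing notes), on the minus strand of chromosome 12. JH4 begins at chr12:114671098-114671127, and the capitals mark the bases that are gone at the most frequent JH4 end:
JH4 start: ATTActatgctatggactactggggtcaag
The D segments were located by clusters of DJ junctions. There were 12 of them with 11 distinct sequences, grouped into 4 families linked by shared runs of at least 8 bases: DQ52 nearest JH, DST4, 8 DSP2 segments, and DFL16.1 with a shorter relative. DQ52, DST4 and DFL16.1 are named by their lengths and order in the GRCm38 gene table, and the rest by start position. Capitals mark the longest run that each segment shares with the JH4 start above. Overlaps can also use shorter shared runs outside the capitals, such as tac at the JH-side end of D_114714725. The segments read:
DQ52: ctaACTGGGac
DST4: agacagctcggGCTAc
D_114690286: ccTACTATGgtaactac
D_114695747: cctagTATGGtaactac
D_114700407 and D_114710077: tcTACTATGattacgac
D_114705399: ccTACTATaggtacgac
D_114714725: tcTACTATGgtaactac
D_114719358: ttcATTACTAcggctac
D_114723458: tcTACTATGgttacgac
D_114727777: tctatgatggTTACTAc
DFL16.1: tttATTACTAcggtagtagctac
DQ52 lies at chr12:114673089-114673099 and DFL16.1 at chr12:114734544-114734566, 61455 bp apart. In the GRCm38 gene table the same pair is 51642 bp apart with 10 D segments listed, so the positions of the files cannot be read as those of GRCm38. They were not checked against an mm9 sequence either. The longest shared run was 7 bases for DFL16.1, its relative and 5 DSP2 segments, and 4 bases for DST4.

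To show what the classes look like, the joint with the most lines is printed for each family and class. D bases are in capitals; the last 15 bases of each are JH4, the first 12 bases of a V(D)J joint are the V segment, and the first 7 bases of a DJ joint are the D's upstream heptamer, still in place because no V has joined:
DQ52 in V(D)J: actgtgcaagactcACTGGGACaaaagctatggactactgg
DQ52 in DJ: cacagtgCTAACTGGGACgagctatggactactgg
DST4 in V(D)J: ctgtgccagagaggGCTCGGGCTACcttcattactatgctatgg
DST4 in DJ: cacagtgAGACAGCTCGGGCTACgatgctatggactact
DSP2 in V(D)J: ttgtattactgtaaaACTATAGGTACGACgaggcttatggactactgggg
DSP2 in DJ: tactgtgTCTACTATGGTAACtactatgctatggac
DFL16 family in V(D)J: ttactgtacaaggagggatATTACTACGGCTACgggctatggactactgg
DFL16.1 in DJ: tactgtgTTagggggctatggactactgg
The V(D)J joints printed had 9, 9, 17 and 22 lines, each from replicate 2. The DJ joints of DQ52, DST4 and DSP2 had 42, 30 and 137 lines and occurred in all 3 libraries. The DSP2 joint has no inserted base: the 3 bases tac belong to D_114714725 and to JH4 alike and are written in lower case. The DFL16.1 joint keeps 2 D bases and held 811 lines, all in replicate 2, which is 3.67% of the DJ lines of that library.

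Joints in V(D)J are hardly shared between libraries. Of the distinct V(D)J joints with at least 10 inserted bases (10212, 3222 and 8452 in replicates 1, 2 and 3), 0 were common to replicates 1 and 2, 0 to 1 and 3, and 1 to 2 and 3. Lines of the same joint do occur within a library: 11648, 3694 and 9675 distinct V(D)J joints stood behind the V(D)J lines, and 10293, 4641 and 12444 distinct DJ joints behind the DJ lines. The authors' duplicate mark covered 84.1%, 90.2% and 86.8% of DJ lines but 56.8%, 74.7% and 56.4% of V(D)J lines. Replicate 2 therefore had the fewest distinct joints in both classes, and counting lines or joints weighs the classes differently. All values below count lines unless they say otherwise, and counting intervals cover counting error only, since the reads carry no molecular identifiers. Lines were chosen because collapsing identical joints also removes independent joints with no inserted base. Values over distinct joints therefore count such joints less often, and are no independent check of the values by lines.

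The class windows separate the joins cleanly. Between them lay 184, 68 and 172 plus-orientation lines, and 0 lines lay above the upper window in any library. Of the DJ joins that kept at least 1 D base, 99.0% ± 0.33 (SD, n = 3) read straight on from the D into its upstream heptamer, the mark of a D not yet joined to a V. A D is only 11 to 23 bases long, so a prey placed at a D position mostly has to read on into that flank. The share is thus no separate test of the classes. A small remainder, 2.70% ± 0.12 of DJ lines, fell outside the 12 D clusters.

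V(D)J joins carried about 13 more bases between JH4 and the prey than DJ joins did. The mean number of inserted bases was 17.1, 16.7 and 16.97 in V(D)J joins and 3.97, 3.90 and 4.00 in DJ joins of replicates 1, 2 and 3. Every V(D)J value was thus far above every DJ value, and the libraries differed little. The difference was 12.95 ± 0.15 bases (SD, n = 3), higher in V(D)J in 3 of 3 libraries (exact two-sided sign-flip test over libraries, p = 0.25, the smallest p that 3 pairs allow). That smallest p holds for every library-level comparison below, so differences are read there against the spread between libraries. The median was 17 against 3 bases in each library, with quartiles of 2 and 5 in DJ joins and of 13 and 21 to 22 in V(D)J joins.

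In a DJ join the prey is the D itself, and in a V(D)J join the D lies between JH4 and the V prey and is counted as inserted. Inserted lengths run from 0 to 30 bases, and no line of any library exceeds 30, so longer V(D)J joints are not in the files. At least 27 inserted bases were found in 6.26%, 4.91% and 5.95% of V(D)J joins. In DJ joins that share was 0.106%, 0.195% and 0.0807%. The upper end of the V(D)J distribution therefore meets the limit and that of the DJ distribution does not.

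**Figure D1:**
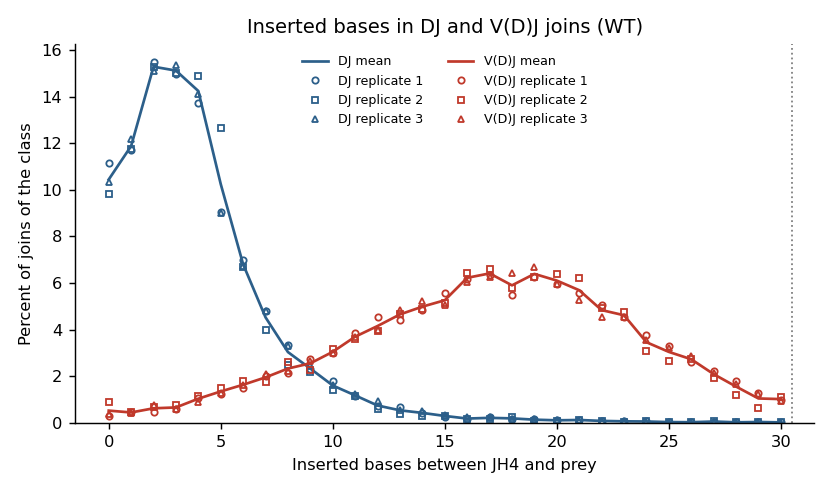
Percent of joins of each class (vertical axis) by number of inserted bases (horizontal axis, overlaps counted as 0); lines are means of 3 WT libraries, symbols the libraries, and the dotted line the limit after 30 bases. DJ joins peak at 2 to 3 bases and V(D)J joins at 17 to 19, and the curves cross near 9.

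Length by length, the classes differed nearly throughout. Of 31 lengths tested with limma-voom with the library as block, 30 (96.8%) differed at an adjusted p under 0.05, 21 (67.7%) higher and 9 (29%) lower in V(D)J joins. The exception was 9 bases, held by 2.55% ± 0.25 of V(D)J and 2.33% ± 0.17 of DJ joins (limma-voom, adjusted p = 0.18). Joins with 2 inserted bases made up 15.3% ± 0.19 of DJ joins and 0.622% ± 0.16 of V(D)J joins. Joins with 17 inserted bases made up 0.212% ± 0.042 of DJ joins and 6.41% ± 0.17 of V(D)J joins.

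Overlap of bait and prey, letters that fit JH4 and the prey alike, was common in DJ joins and rare in V(D)J joins. The classes compare different edges here: JH4 with D in a DJ join, and JH4 with V in a V(D)J join. A V(D)J join with a D in between cannot show such an overlap. Overlap of JH4 with the D inside a V(D)J joint was not measured. The share of joins with an overlap was 5.83%, 5.10% and 5.54% in DJ joins. In V(D)J joins it was 0.148%, 0.438% and 0.242%, with 95% Wilson intervals of 0.10 to 0.219%, 0.330 to 0.580% and 0.175 to 0.334%. The difference of -5.21 ± 0.51 percentage points had the same sign in 3 of 3 libraries. Over distinct joints it was -2.84 points, with an overlap in 3.06% of DJ joints. Joins with neither an inserted base nor an overlap made up 4.95% ± 0.33 of DJ joins and 0.247% ± 0.17 of V(D)J joins (n = 3). In both classes of direct join, the highest V(D)J share was that of replicate 2.

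The 205 V(D)J lines with no inserted base came from 98 distinct joints. In such a joint V touches JH4 with no letter of a D between them. V(D)J joins with fewer than 8 inserted bases, in which no D can be named by the rule used here, made up 7.61%, 8.97% and 8.05% of the class.

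Most overlaps in DJ joins were short. Of the DJ overlaps, 24.3% ± 2.3 were 1 base, 16.3% ± 3.2 were 2 bases and 31.9% ± 1.3 were 3 bases long. By lines, the letters tac accounted for most of the 3-base overlaps: 515 lines at DSP2 segments and 407 lines at the DFL16 family. These lines came from few distinct joints, 15 and 11. The 1-base overlap a at DSP2 had fewer lines, 286, but 62 distinct joints. All 11 D sequences end in ac at the JH side, and JH4 holds tac after its first 2 bases. The DFL16 family, DST4 and the DSP2 segments D_114690286, D_114695747, D_114714725 and D_114727777 end in tac. The cta overlap had 283 lines (8 distinct joints) at the DFL16 family and 7 lines (2 distinct joints) at DST4. Every segment that ends in tac ends in ctac, and so holds cta near the JH end as well.

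The overlap share differed between D segments by more than the library spread at the extremes. It was lowest at DST4, at 2.60%, 2.46% and 1.84% of its DJ joins. DST4 shares the shortest run with JH4 but ends in ctac, and so holds tac and cta too. Whether the shared run plays a part was not tested. At DQ52 the overlap share was 3.90% ± 1.1. At DFL16.1 it was 6.55%, 5.42% and 6.43%, and at its shorter relative D_114719358 it was 6.93%, 5.78% and 6.04%. The DST4 values thus lie below those of DQ52 and of the DFL16 pair, and DQ52 lies below the DFL16 pair in each library. The highest mean was at D_114690286, at 6.63% ± 1.0. D_114723458, a DSP2 segment with a shared run of 7 bases, was low as well, at 3.11%, 2.11% and 4.28%. Overlaps of 6 bases or more made up 0.857% ± 0.16 of all DJ joins, 663 lines. Of these, 135 lay at D_114710077, 133 at D_114727777, 110 at D_114700407 and 0 at DST4. The first 3 have shared runs of 6 or 7 bases, but so do other segments with fewer such lines. Among those, the count ran from 6 lines at DQ52 to 62 at D_114714725, with 45 at DFL16.1. Some overlaps, of up to 24 bases, were longer than any exact run shared with the JH4 start printed here.

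Counted by lines, the JH4 ends had similar shares in both classes. The most frequent end, 4 bases short of the coding end, was held by 17.4%, 16.6% and 16.6% of V(D)J joins and by 17.04%, 16.3% and 17.6% of DJ joins. The classes overlap and the difference of -0.08 ± 0.78 percentage points changed sign between libraries (exact two-sided sign-flip test over 3 libraries, p = 1.0). It was 1.49 points when each joint was counted once and 4.40 points among lines not marked duplicate, of which DJ joins have few. The untrimmed coding end was held by 12.3% ± 0.41 of V(D)J and 12.8% ± 0.20 of DJ joins. The end 8 bases short was held by 11.6%, 12.1% and 12.3% of V(D)J joins and by 11.6%, 15.5% and 11.4% of DJ joins; the high DJ value in replicate 2 holds the 811 lines of the DFL16.1 joint printed above, which ends there.

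The 9 ends that held at least 5% in either class, from the coding end to 8 bases short of it, together made up 86.1% of V(D)J and 84.5% of DJ joins. Their class differences ranged from -0.83 to 0.96 percentage points, and none of the 9 passed the test. Of 29 ends tested with limma-voom with the library as block, 4 (13.8%) differed at an adjusted p under 0.05, 1 (3.45%) higher and 3 (10.3%) lower in V(D)J joins. The lowest adjusted p belonged to the end 21 bases short, which held 0.326%, 0.420% and 0.356% of V(D)J joins and 0.533%, 0.765% and 0.626% of DJ joins. The V(D)J values lay below the DJ values in each library (log2 difference -0.78 ± 0.18 SE, limma-voom adjusted p = 0.0021). The 4 calls, all of ends under 1% of joins, did not hold without the block or in DJ joins that run into the heptamer, with 0 calls in each (3 ends each at an unadjusted limma p under 0.05), nor without replicate 1 or replicate 2, with 0 calls each (8 and 7 ends unadjusted). Counting each joint once gave 24 calls of 27 ends, and lines not marked duplicate gave 25 of 27.

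**Figure D2:**
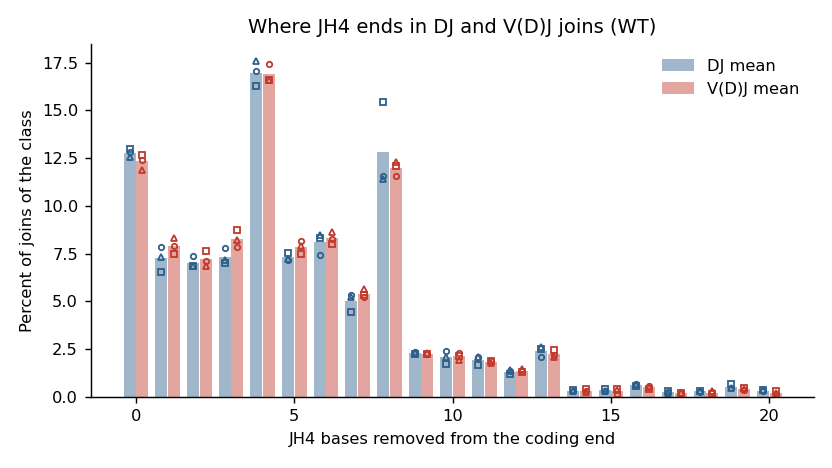
Percent of joins of each class (vertical axis) by number of JH4 bases removed from the coding end (horizontal axis); bars are means of 3 WT libraries, and circles, squares and triangles are replicates 1, 2 and 3. Both classes peak at 0, 4 and 8 bases, with 12.8%, 16.96% and 12.8% of DJ and 12.3%, 16.9% and 11.98% of V(D)J joins.

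The long end of JH4 trimming was a little heavier in DJ joins. JH4 had lost over 13 bases in 4.32%, 4.53% and 4.42% of DJ joins and in 2.99%, 3.24% and 3.197% of V(D)J joins, groups that do not overlap. Counted from the most frequent end, with longer ends at 0, the mean loss was 2.33, 2.45 and 2.45 bases in DJ joins and 2.04, 2.05 and 2.09 bases in V(D)J joins. The difference of -0.35 ± 0.05 bases (SD, n = 3) was -0.08 when DJ joins were limited to those running into the heptamer, -0.65 over distinct joints and -2.15 among lines not marked duplicate.

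The D between JH4 and V could be read in most V(D)J joins. An exact run of at least 8 bases of a D, in the joining orientation, was found in 66.9%, 66.8% and 67.0% of V(D)J joins. The same search in the opposite orientation, which serves as the background of the rule, matched 4.12%, 3.32% and 3.91%. Inserted bases of DJ joins matched in 1.17% ± 0.12. With a minimum of 6 bases the opposite orientation matched 41.6% ± 0.32, and with 10 bases 0.0542% ± 0.030, against 79.9% ± 0.88 and 51.5% ± 0.37 in the joining orientation. Matching rose with the room for a D: 20.96% ± 1.1 of inserts of 8 to 12 bases, 86.4% ± 0.35 of 17 to 20 bases and 97.0% ± 0.44 of 26 to 30 bases held a matched D.

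A V(D)J joint with a matched D can be cut into its parts. The D run averaged 12.3 ± 0.02 bases (SD, n = 3). The JH4 side of it carried 3.66 ± 0.12 inserted bases and the V side 3.79 ± 0.04 bases. The V side was the longer in 3 of 3 libraries, at 3.83, 3.75 and 3.799 bases against 3.75, 3.53 and 3.71, and both were shorter than the 3.95 ± 0.05 inserted bases of DJ joins.

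At the JH4 side, the DJ class and the V(D)J class differ in what can be seen as well as in the joint. A D needs 8 bases left to be named in V(D)J, and a DJ join is placed by position however little of the D remains. Over all DJ joins the JH4-side insert was longer by a little: 3.97, 3.90 and 4.00 bases against 3.75, 3.53 and 3.71 in V(D)J. In DJ joins that also kept 8 D bases it was 3.70, 3.64 and 3.75 bases. The difference then was -0.04 ± 0.08 bases, with both signs among the libraries, and so within the spread. Over distinct joints it was -0.89 and among lines not marked duplicate -1.13, without the limit of 8 bases.

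The 3' end of D, the side that faces JH, was shorter by more bases in DJ joins. Over all joins at a D, 3.52, 4.15 and 3.55 bases were missing in DJ joins against 1.82, 1.81 and 1.89 in V(D)J joins. The 811-line joint of DFL16.1 lacks 21 D bases and weighs on replicate 2; without the top joint of each library and class the difference was -1.69 in place of -1.90 bases, and among lines not marked duplicate it was -3.51. In DJ joins with 8 D bases left, 2.36, 2.31 and 2.35 bases were missing. The V(D)J values lay below these in each library, by 0.50 ± 0.04 bases on average. A V(D)J joint also loses D bases at the V side, 3.78 ± 0.07 where the D was named uniquely, so it needs a longer D at the JH side to keep 8; the share of the difference that this makes was not tested.

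Family by family, DQ52, the shortest D, lacked 0.564 ± 0.019 bases at its JH side in V(D)J and 0.896 ± 0.051 in DJ joins with 8 bases left. DST4 lacked 1.30 ± 0.06 and 1.40 ± 0.05. DSP2 lacked 1.37 ± 0.03 and 2.02 ± 0.01, and the DFL16 family 2.98 ± 0.05 and 3.30 ± 0.02. The order of the families was the same in both classes, but a shorter D can lack fewer bases when 8 must be left. The requirement alone thus favours this order. Over all DJ joins at a D, 3.04 bases were missing at DQ52, 3.14 at DST4, 2.62 at D_114719358 and 5.80 at DFL16.1. The DFL16.1 mean was 4.83, 7.58 and 4.99 in replicates 1, 2 and 3, and the value of replicate 2 holds the 811-line joint. The JH4-side inserts of DSP2 were close, at 3.98 ± 0.12 in V(D)J and 3.93 ± 0.11 in DJ joins. Those of the DFL16 family averaged 3.02 ± 0.17 in V(D)J and 3.32 ± 0.03 in DJ joins. They were shorter in V(D)J in each library, at 3.21, 2.87 and 2.98 bases against 3.35, 3.30 and 3.30. DSP2 joints carried the longest of these inserts in both classes.

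**Figure D3:**
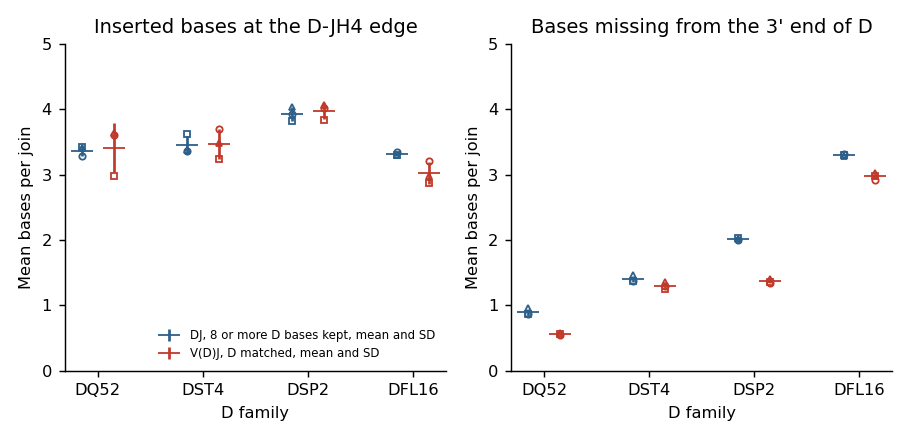
Mean inserted bases at the D-JH4 edge (left) and mean bases missing from the 3' end of D (right), per join, by D family; circles, squares and triangles are WT replicates 1, 2 and 3, and bars the mean and SD of 3 libraries. Inserts lie between 2.87 and 4.07 bases in all families and both classes, and fewer D bases are missing in V(D)J than in DJ joins in all 4 families.

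Among the 12 D segments, DJ inserts averaged between 3.39 bases at DQ52 and 4.51 at D_114700407. DFL16.1 stood apart in D trimming: its 3' end was whole in 22.3%, 18.4% and 22.2% of DJ joins. The next lowest was DQ52 at 36.6% ± 0.16, and the highest DST4 at 48.4% ± 0.88. At DQ52 and DST4 the prey most often began upstream of the D, with no D base kept, in 9.86% ± 0.71 and 10.1% ± 4.0 of their DJ joins, against 1.91% at D_114690286, the lowest. Mean JH4 loss, counted from the coding end, ranged from 4.94 bases at D_114727777 to 5.78 at DQ52.

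The inserted bases were rich in G and C in both classes. At the JH4 side, G and C made up 65.8%, 66.4% and 66.1% of inserted bases in V(D)J and 62.7%, 63.5% and 63.0% in DJ joins. The difference of 3.04 ± 0.16 percentage points had the same sign in 3 of 3 libraries. On the coding strand G was the most frequent base of the JH4-side inserts, at 44.1% ± 0.45 in V(D)J and 40.4% ± 0.61 in DJ joins, and A the least, at 14.3% ± 0.50 and 16.08% ± 0.14. At the V side the share of G and C was 63.2% ± 0.22, and G again led at 42.1% ± 0.58.

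The base next to an untrimmed end had a composition of its own. Beside an untrimmed JH4, whose first base is a, the inserted base was T in 75.4% ± 0.6 of DJ joins and 71.4% ± 2.0 of V(D)J joins; T completes a palindrome with that end and so is what a P base would be. Beside a trimmed JH4 it was T in 21.2% ± 1.5 and 19.8% ± 0.4. Beside an untrimmed 3' end of D, which ends in c, it was G in 72.1% ± 1.2 of DJ joins and 72.0% ± 0.6 of V(D)J joins. Beside a trimmed D it was G in 23.4% ± 1.5 and 25.7% ± 1.3. The share of T beside untrimmed JH4 was higher in DJ joins in 3 of 3 libraries, at 75.4%, 74.8% and 75.9% against 72.05%, 69.2% and 73.1%, and the share of G beside untrimmed D overlapped between the classes. In both classes the shares lay far from those beside trimmed ends. At JH4 the shares of T are not taken over the same letters. G made up 48.9% ± 1.7 of DJ and 48.6% ± 0.8 of V(D)J joins beside a trimmed JH4 and was absent beside an untrimmed one. Its absence raises the share of T there. G was the base beside the untrimmed JH4 in 0 lines of either class, 9015 DJ and 5223 V(D)J lines, and no line ended 1 base beyond the coding end; the cause was not tested.

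D use was compared between joins of a D placed by position (DJ) and by match (V(D)J). By family, DSP2 made up 63.9%, 66.8% and 63.8% of V(D)J joins with a matched D and 60.4%, 57.6% and 60.1% of DJ joins at a D. The DFL16 family made up 31.3%, 28.9% and 31.4% of V(D)J and 30.8%, 31.0% and 30.7% of DJ joins. DST4 made up 2.70%, 2.56% and 2.71% of V(D)J and 3.84%, 4.16% and 4.33% of DJ joins. DQ52 made up 2.15%, 1.82% and 2.07% of V(D)J and 5.01%, 7.24% and 4.90% of DJ joins. DQ52 and DST4, nearest JH, were thus lower in V(D)J in 3 of 3 libraries and DSP2 higher in 3 of 3, and the DFL16 family had both signs.

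The size of the DQ52 difference depends on the match rule, because only 11 bases of DQ52 exist to be matched. Its difference was -3.70 ± 1.48 percentage points in all, -2.33 against DJ joins that kept 8 D bases, and -2.09 with a minimum match of 6 bases, with the same sign in each library under each. The excess of DSP2, 5.47 ± 3.2 points, did not keep its sign when each joint was counted once (-0.27) or when duplicate-marked lines were left out (-0.51), each with an SD above its size. The difference of the DFL16 family, -0.31 ± 1.6 points, was then 4.61 and 8.77.

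By segment, 11 D sequences were tested with limma-voom with the library as block, and 7 (63.6%) differed between the classes at an adjusted p under 0.05, 3 (27.3%) higher and 4 (36.4%) lower in V(D)J joins; among lines not marked duplicate 11 did. D_114705399, a DSP2 segment 32.3 kb upstream of DQ52, had the largest excess in V(D)J: 17.5%, 19.9% and 18.1% of V(D)J joins with 1 D named, against 8.82%, 10.3% and 9.40% of DJ joins. The groups do not overlap (log2 difference 0.97 ± 0.05 SE, limma-voom adjusted p = 2.3e-07). The identical pair D_114700407 and D_114710077, counted together, held 16.5% ± 0.66 of V(D)J and 11.5% ± 0.54 of DJ joins (log2 difference 0.49 ± 0.07 SE, limma-voom adjusted p = 0.00019). D_114719358, the short relative of DFL16.1, held 10.02% ± 0.62 and 7.27% ± 0.11 (0.45 ± 0.09 SE, limma-voom adjusted p = 0.0020; 0.17 without replicate 2).

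DQ52, at 2.34% ± 0.19 of V(D)J joins with 1 D named and 5.72% ± 1.3 of DJ joins, was lower in V(D)J (log2 difference -1.29 ± 0.15 SE, limma-voom adjusted p = 7.1e-05; 0.056 with a match of 6 bases). DST4 was lower as well (-0.42 ± 0.09 SE, limma-voom adjusted p = 0.0026; 0.066 with a match of 6 bases and 0.085 without replicate 3). Its log2 difference was -0.23 over distinct joints and -0.87 in lines not marked duplicate, both called. DFL16.1, the most used D of both classes, held 24.9%, 22.01% and 25.6% of V(D)J and 23.4%, 23.8% and 23.5% of DJ joins, which overlap (log2 difference 0.03 ± 0.07 SE, limma-voom adjusted p = 0.81). DFL16.1 was called higher in V(D)J joins in 4 alternatives, all counting only V(D)J joins with 1 D named. These were distinct joints (log2 difference 0.30, limma-voom adjusted p = 0.00090) and lines not marked duplicate (0.62, adjusted p = 0.00027). The others were a match of 10 bases (0.19, adjusted p = 0.014) and leaving out the top joint of each library and class (0.11, adjusted p = 0.0081). With similar D merged, DFL16.1 was lower in V(D)J, as given below.

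D_114690286 and D_114714725 were lowest in V(D)J relative to DJ, with log2 differences of -1.75 ± 0.08 and -2.87 ± 0.09 SE. Their printed sequences are alike but for the first base, which V-side trimming removes, so a V(D)J insert that could be either is counted for neither. Merged with D_114695747, with which they share long runs, the group held 21.4%, 23.5% and 20.4% of V(D)J and 24.4%, 23.2% and 23.3% of DJ joins (log2 difference -0.12 ± 0.07 SE, limma-voom adjusted p = 0.10). With such sequences merged, 8 of 9 (88.9%) differed between the classes. D_114705399 then was higher by 0.78 ± 0.04 SE on the log2 scale and the identical pair by 0.33 ± 0.06 SE. DFL16.1 was then lower in V(D)J (log2 difference -0.16 ± 0.07 SE, limma-voom adjusted p = 0.046). The log2 differences of D_114719358, DQ52 and DST4 were then 0.27, -1.45 and -0.60. Unmerged, 24593 of 28529 V(D)J lines with a family named had 1 D named, and 14799 of 18429 at DSP2. The unmerged V(D)J shares are thus of a total that lacks the DSP2 lines left unnamed, which raises the shares of other D.

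**Figure D4:**
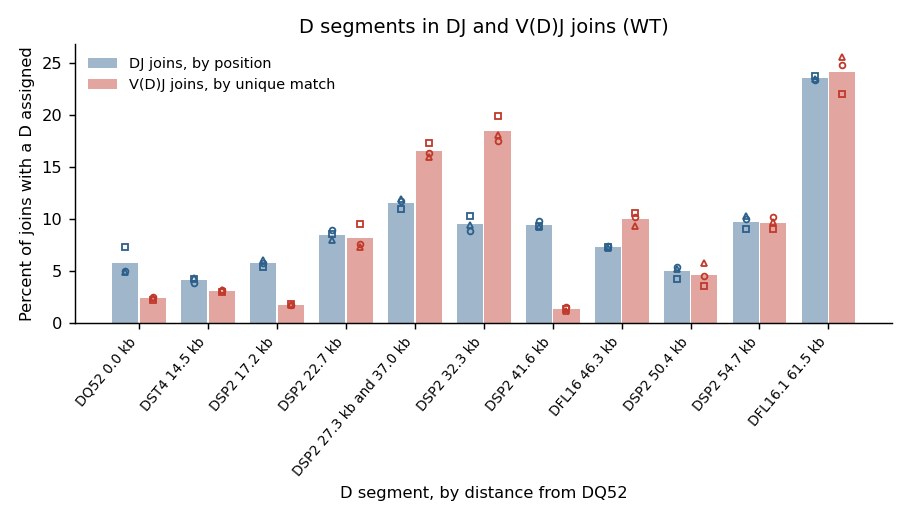
Percent of joins with a D assigned (vertical axis) for each D sequence, by distance from DQ52 in kb; bars are means of 3 WT libraries, and circles, squares and triangles replicates 1, 2 and 3. The segment at 32.3 kb holds 9.50% of DJ and 18.5% of V(D)J joins, and those at 17.2 and 41.6 kb are segments whose trimmed inserts can match both.

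The length limit touches the families unequally. The DFL16 family made up 24.6%, 22.9% and 24.5% of matched V(D)J joins with 13 to 16 inserted bases, 33.3% ± 1.7 with 21 to 24, and 45.9% ± 3.0 with 28 to 30. DQ52 made up 4.38% ± 0.72 at 13 to 16 bases and 0.364% ± 0.48 at 28 to 30. Joints over 30 bases, not analysed here, lie beyond the lengths at which the share of the DFL16 family was highest.

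D use in V(D)J joins also differed by where the V lay. This comparison was chosen after its values were seen and has no test. VH81X was taken as the V segment at the most frequent single V junction of these libraries. Its neighbours lay within 48 bp of the spacing in the GRCm38 table. DFL16.1 was the matched D in 11.6%, 5.37% and 8.18% of VH81X joins. It was the matched D in 15.7% ± 2.4 of joins to V segments up to 100 kb upstream, 22.04% ± 5.4 at 100 to 500 kb, and 23.6% ± 0.31, 23.4% ± 2.6 and 23.5% ± 1.5 in the more distant classes. Beyond 100 kb the means thus lay within 2 points of each other.

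D_114705399 ran the other way. It was the matched D in 26.5%, 32.8% and 33.9% of VH81X joins and in 23.9% ± 1.8 of joins up to 100 kb upstream. At 100 to 500 kb it was 12.4% ± 1.3, and in the 3 more distant classes 12.4% ± 0.88, 12.2% ± 0.90 and 13.5% ± 3.0. At VH2-2, the next V segment upstream of VH81X, it was 25.8% ± 3.2. The DJ share of the segment, 9.50% ± 0.75, was nearer to that in distant V joins.

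As a family, DFL16 made up 17.2%, 13.8% and 12.5% of matched joins at VH81X and 33.8% ± 1.5 of those over 1 Mb upstream, a difference of -19.3 ± 3.1 percentage points. DSP2 made up 80.3% ± 2.7 and 61.1% ± 1.6. Counting each joint once gave -18.9 points for DFL16, and leaving out duplicate-marked lines gave -18.8. VH81X joins carried 16.8 ± 0.40 inserted bases and joins over 1.5 Mb upstream 17.2 ± 0.38, and a D was matched in 68.7% ± 1.6 and 66.5% ± 0.97. The share with at least 27 inserted bases, near the limit, was 5.82%, 4.27% and 5.24% at VH81X and 7.47%, 6.15% and 6.16% over 1.5 Mb upstream, lower at VH81X in each library. JH4 had lost 5.07, 5.98 and 5.17 bases from the coding end at VH81X and 4.91, 4.88 and 5.04 over 1.5 Mb upstream, more at VH81X in each library. The part of these differences in D use was not tested.

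**Figure D5:**
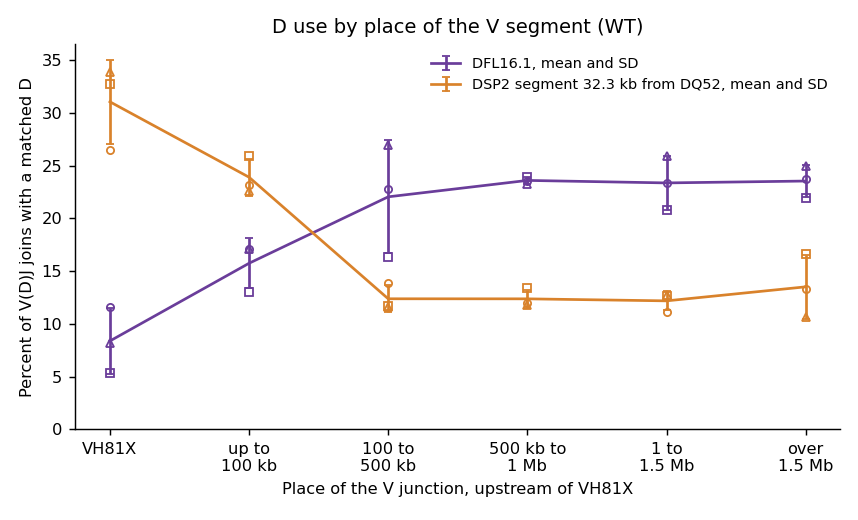
Percent of V(D)J joins with a matched D (vertical axis) that held DFL16.1 or the DSP2 segment 32.3 kb from DQ52, D_114705399, by place of the V junction upstream of VH81X; circles, squares and triangles are WT replicates 1, 2 and 3, lines and bars the mean and SD. DFL16.1 goes from 8.37% at VH81X to 23.5% over 1.5 Mb upstream, and D_114705399 from 31.0% to 13.5%.

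A few DJ joins held a second D. Inserted bases matching a D, in joins that kept at least 1 base of the prey D, were of another family than the prey in 109 lines (43 distinct joints) in which the inserted D was named uniquely. In 106 of these lines the inserted D was the one nearer to JH, and in 3 lines the one farther away. DQ52 was inserted in 66 lines (22 distinct joints) with DSP2 as prey and in 18 lines (5 distinct joints) with the DFL16 family as prey. The example with the most lines, 12 in replicate 2, shows the heptamer of D_114714725, its 17 bases, a few further bases, 9 bases of DQ52 in capitals, and JH4 in the last 15 bases:
D_114714725 with DQ52 inserted: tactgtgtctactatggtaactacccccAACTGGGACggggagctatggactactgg
DQ52 was inserted in 0.0512%, 0.178% and 0.155% of joins of DSP2 and the DFL16 family that kept a D base. Inserts of the prey's own family also occurred: DSP2 in DSP2 joins in 118 lines (93 distinct joints), the DFL16 family in its own joins in 11 lines (3 distinct joints), and DST4 in DST4 joins in 2 lines. Within a family the order of the segments was not examined. Of 4140 DJ lines with DQ52 as prey, 0 held a D of another family, which allows a share of up to 0.0725%. As a background, 36 DJ lines at a D matched a D in the opposite orientation.

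Without the condition that a D base was kept, 227 lines (99 distinct joints) held a D of another family, 17 of them with the inserted D not named uniquely. The largest group among these was DQ52 at the DST4 position, in 31, 27 and 38 lines of replicates 1, 2 and 3. All 96 lines kept no DST4 base, and their prey began 7 to 14 bp beyond the V-side end of DST4, in its recombination signal. They hold DQ52 joined to JH4 but no DST4, and are not counted as joins of DST4 to DQ52. Placed by position, they remain among the 3048 DJ lines of DST4 in the values above. There they made up 3.66%, 3.02% and 2.91% of the DST4 lines of replicates 1, 2 and 3.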

How the data were processed

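The authors deposited 1 table of junctions per library; bait and prey positions, read positions and the duplicate mark are used as deposited, and their columns hold positions and marks, not a normalized unit. Bowtie2 and mm9 are named in the submitters' processing notes; the version is not given in the sources used here. Inserted bases are the read bases between bait and prey; the deposited tables hold none above 30. Members, lists and tests were chosen with earlier results of these data known. A D was placed by position in DJ joins and by the longest exact run of at least 8 bases in V(D)J joins. Its JH-side end is the most frequent DJ junction of its cluster, in place of the farthest one first planned. D segments with at least 1% of DJ joins, JH4 ends with at least 5% and the end with the lowest adjusted p are named; for each family the joints with the most lines are printed. Features with at least 10 joins on average in a class were fitted with limma 3.58.1 (voom) in R 4.3.3, with Benjamini-Hochberg adjustment and the library as block, since both classes come from the same library; scripts were tested on simulated data. Alternatives counted distinct joints or lines not marked duplicate, limited DJ joins, moved the match minimum, changed the fit and left out each library.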

Additional observations from a re-analysis of the deposited data

How the results depend on the processing

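Of the values recomputed for the class comparisons, 128 kept their direction or, for counts of calls, stayed within 1.5 times, 10 changed sign and 9 moved further. The class difference in the share at the most frequent JH4 end was 4.40 points among lines not marked duplicate, 1.49 over distinct joints and 0.37 without replicate 3 (leaving out a library gave -0.32 to 0.37). For DSP2 the difference was -0.51 and -0.27 in lines not marked duplicate and in distinct joints. For the DFL16 family it was 8.77 and 4.61 there, 3.25 with a match of 10 bases, 0.73 without the top joints and 0.61 without replicate 2 (range on leaving out a library -0.82 to 0.61). Both classes come from the same library, so the library served as the replicate block. The fit of JH4 ends called 0 of 29 without the replicate block, 0 of 29 in DJ joins running into the heptamer, 0 of 144 with no filter, 24 of 27 over distinct joints and 25 of 27 in lines not marked duplicate, and 0 to 1 when a library was left out, against 4; at an unadjusted p under 0.05 it was 3 without the block, 3 with the heptamer and 13 with no filter, and 8 and 7 without replicates 1 and 2 (limma). The fit of D use called 11 of 11 in lines not marked duplicate, against 7. Without the replicate block it called 7 of 11, and the length fit 30 of 31. Among named features, in lines not marked duplicate the log2 difference of D_114727777 was 0.19, and of the JH4 ends 0, 4 and 8 bases short 0.46, 0.57 and 0.39; the end 4 bases short was 0.14 over distinct joints, and DFL16.1 was -0.16 with similar D merged. The cause of these shifts was not tested. Depth of 10961 to 30998 lines a class and library limits shares to 0.00968% to 0.0274% at 0 lines.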
